A study of Bos taurus with 3 samples.

Results

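The proteins of the mitochondrial ribosome are described here as their mRNAs appear in bovine retina. The genes were chosen by symbol, as those that begin with MRPL or MRPS followed by a digit, and 74 of the 13574 genes in the table met that rule, 45 named for the large subunit (MRPL) and 29 for the small subunit (MRPS). The data are 3 RNA sequencing libraries of poly(A) RNA from retinas of cattle of mixed strain, collected between 7 and 10 in the morning, and all 3 belong to 1 untreated group. Total RNA was pooled for each library, and nothing in the labels says which animals went into which pool, so that an SD over libraries measures the spread between these pools. Values are FPKM, fragments normalised to gene length and to the reads of the library, as deposited by the authors. With 1 group there is no contrast to test, so all differences below are descriptions, each set beside the spread between libraries.

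Mitochondria carry their own ribosome, which makes a small set of inner membrane proteins of the respiratory chain and ATP synthase from the mitochondrial genome. Its RNAs are transcribed inside the organelle, while all of its proteins are encoded in the nucleus, made in the cytosol and imported. The small subunit binds the mRNA and reads the codons, and the large subunit joins the amino acids and lets the chain leave through a tunnel towards the inner membrane. Many of the proteins descend from bacterial ribosomal proteins, and others have no bacterial counterpart. Photoreceptors are known for dense mitochondria in their inner segments and for a high use of ATP.

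The libraries were deep enough for nearly all of these genes. The low values, multiplied by gene length, step by the worth of 1 read, and from the steps the denominators were 36656987, 39011741 and 49102476 reads in libraries 1, 2 and 3. The 74 genes held 98082, 100543 and 96094 of those reads. Markers of rods and cones were high, with the rod transducin alpha subunit GNAT1 at 4340 FPKM and cone arrestin ARR3 at 545 FPKM, while the globin genes HBA and HBB were listed at 0. The 4 pigment epithelium markers (RPE65, BEST1, TYRP1 and MITF) summed to 12.2, 5.89 and 6.90 FPKM in libraries 1, 2 and 3. In bulk tissue, fewer cells of a type and less RNA per cell cannot be told apart.

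Transcripts of the mitochondrial ribosome were present at moderate levels throughout the retina libraries. The median over the 74 genes was 26.0, 24.0 and 19.1 FPKM in libraries 1, 2 and 3, against 5.92, 5.24 and 5.55 FPKM over all genes of the table. In each library the family therefore stood above the middle of the transcriptome, and library 3 gave its lowest median. A mean of at least 10 FPKM was reached by 64 of the 74 genes, against 38.4% of all genes, and a mean of at least 1 FPKM by 72 of the 74, against 70.7% of all genes. No mean reached 100 FPKM, a level that 3.81% of all genes reached. The family as a whole held 0.776%, 0.710% and 0.600% of the summed FPKM in libraries 1, 2 and 3.

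Large and small subunit genes lay close together. The median of the 45 large subunit genes was 25.8, 26.8 and 20.0 FPKM in libraries 1, 2 and 3, and that of the 29 small subunit genes was 26.5, 22.2 and 18.3 FPKM. Large subunit genes were thus lower in library 1 and higher in libraries 2 and 3. On the log2(FPKM + 1) scale the large minus small difference of medians was -0.04, 0.26 and 0.13 in the 3 libraries, a mean of 0.12 ± 0.15 (SD, n = 3), which is within the spread between libraries.

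The mean FPKM per gene was 35.4, 33.7 and 24.8 for the large subunit in libraries 1, 2 and 3, against 33.3, 30.9 and 23.3 for the small subunit. The large to small ratio of these means was 1.07 ± 0.017 (SD, n = 3) and lay above 1 in each library. The mean of log2(FPKM + 1) over the genes of each subunit pointed the other way, with a large minus small difference of -0.047. With all genes counted, which subunit stood higher thus depended on the summary used. The mean of log2(FPKM + 1) included MRPL33 and MRPL22, at 0.298 and 0.0857 FPKM, and was not taken without them. A mean of at least 10 FPKM was reached by 39 of 45 large subunit genes and by 25 of 29 small subunit genes.

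Symbols do not give the subunit of every protein. MRPS18A and MRPS30 carry small subunit names but sit in the large subunit of the mammalian mitochondrial ribosome, and MRPS36 is known as a component of the 2-oxoglutarate dehydrogenase complex and not of the ribosome. MRPS18A had 50.0 FPKM ± 6.79, MRPS30 13.0 FPKM ± 0.953 and MRPS36 23.6 FPKM ± 10.6 (SD, n = 3 for each). With MRPS18A and MRPS30 counted as large and MRPS36 left out, 47 large stood against 26 small subunit genes. The large minus small difference of medians was then 0.10 ± 0.096 and the ratio of mean FPKM 1.07 ± 0.011 (SD, n = 3), close to the values by symbol. With 7 ribosomal proteins under other symbols added as well, 50 large stood against 30 small subunit genes, with a difference of 0.39 ± 0.26 and a ratio of 1.12 ± 0.017 (SD, n = 3).

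**Figure D1:**
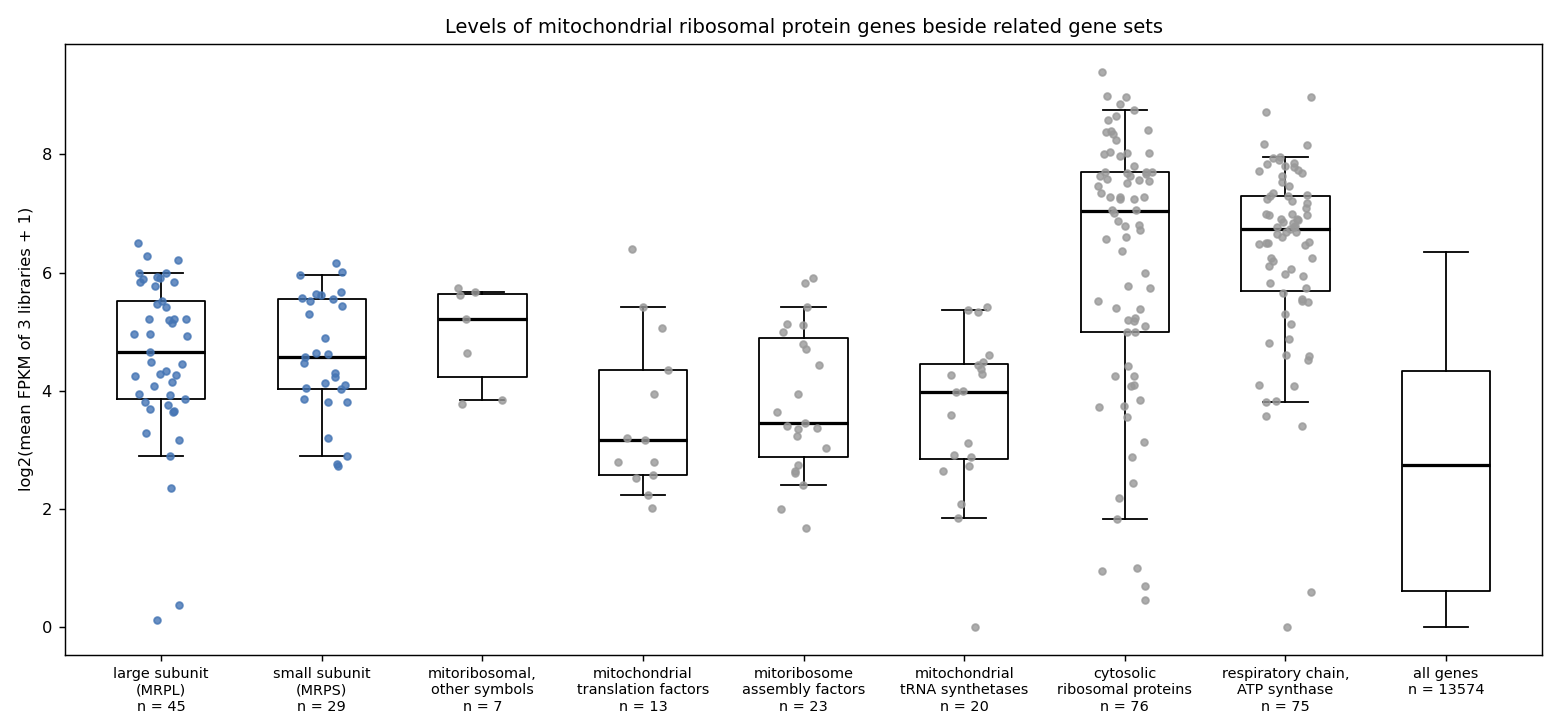
Levels of the 45 large and 29 small subunit genes (blue) beside related gene sets (grey) and all 13574 genes. Points are genes at log2 of the mean FPKM of 3 libraries plus 1, boxes span the quartiles with the median as a bold line, and whiskers run from the 5th to the 95th percentile. The boxes of both subunits overlap almost fully, with medians above that of all genes and below those of the cytosolic ribosomal proteins and the respiratory chain.

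Within the large subunit, levels ran from 90.1 FPKM down to almost nothing. MRPL28, the counterpart of a bacterial ribosomal protein, was highest with 101, 99.7 and 69.5 FPKM in libraries 1, 2 and 3, which placed it at rank 588 of all genes. MRPL41, which has no bacterial counterpart, followed with 93.7, 85.8 and 49.7 FPKM, and MRPL27, which lies near the peptidyl transferase centre, with 78.6, 86.7 and 53.2 FPKM. In each of these genes library 3 was the lowest by a clear margin. MRPL20 had 62.4 FPKM ± 13.7 and MRPL43, also without a bacterial counterpart, 62.4 FPKM ± 11.5 (SD, n = 3). In all, 11 large subunit genes had means of at least 50 FPKM, 14 lay from 20 to below 50, 14 from 10 to below 20, and 6 were below 10.

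At the low end stood MRPL42 at 7.97 FPKM ± 4.37, MRPL47 at 6.46 FPKM ± 3.21 and MRPL1 at 4.08 FPKM ± 0.899 (SD, n = 3). MRPL1 belongs to the mobile stalk beside the site where spent tRNAs leave. Below them, 2 genes were nearly without reads. MRPL33 had 10, 1 and 5 reads in libraries 1, 2 and 3, and MRPL22, whose bacterial counterpart lines the exit tunnel, had 13, 0 and 1 reads. A count of 3 reads was taken as the floor, so MRPL22 was above it in library 1 alone.

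Other genes that every cell uses were also near 0 in the same table. RPL7, a protein of the cytosolic ribosome, had 15, 21 and 12 reads, and ATP5L, a subunit of ATP synthase, was listed at 0 in each library. The treatment of reads with more than 1 match in the genome is not given here by any label, and in the ARS-UCD2.0 annotation MRPL22 overlaps a pseudogene and MRPL33 does not. MRPL3, MRPL45, MRPS25 and MRPS35 overlap one too, at 15.8, 30.1, 46.1 and 5.76 FPKM. The part of either in the low values was not tested, and the values of MRPL22 and MRPL33 are uncertain. Leaving both out changed the ratio of mean FPKM, large over small, to 1.12.

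The small subunit had a narrower range. MRPS34, a protein without bacterial counterpart, was highest with 74.7, 76.8 and 61.4 FPKM in libraries 1, 2 and 3. MRPS11 of the platform had 73.9, 68.2 and 47.5 FPKM, and MRPS2 had 61.4, 69.0 and 53.0 FPKM. Libraries 1 and 2 gave similar values for these genes and library 3 lower ones. MRPS16 had 48.6 FPKM ± 14.8 (SD, n = 3), close to MRPS18A.

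The lowest small subunit genes were MRPS17 at 5.59 FPKM ± 2.43, MRPS35 at 5.76 FPKM ± 1.46, MRPS18C at 6.45 FPKM ± 4.95 and MRPS31 at 8.17 FPKM ± 1.55 (SD, n = 3 for each). MRPS30 was next, so that all 29 genes were above 5 FPKM. The range thus spanned from 5.59 to 70.9 FPKM in the small subunit and from 0.0857 to 90.1 FPKM in the large subunit. Neighbours in these orders differed by less than the larger of their SDs in 41 of 44 large and 25 of 28 small subunit pairs. Those SDs include shifts that members shared between libraries. Across the 72 members that averaged 1 FPKM or more, Spearman rho was 0.96 between libraries 1 and 2. It was 0.95 between libraries 1 and 3 and 0.98 between libraries 2 and 3.

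**Figure D2:**
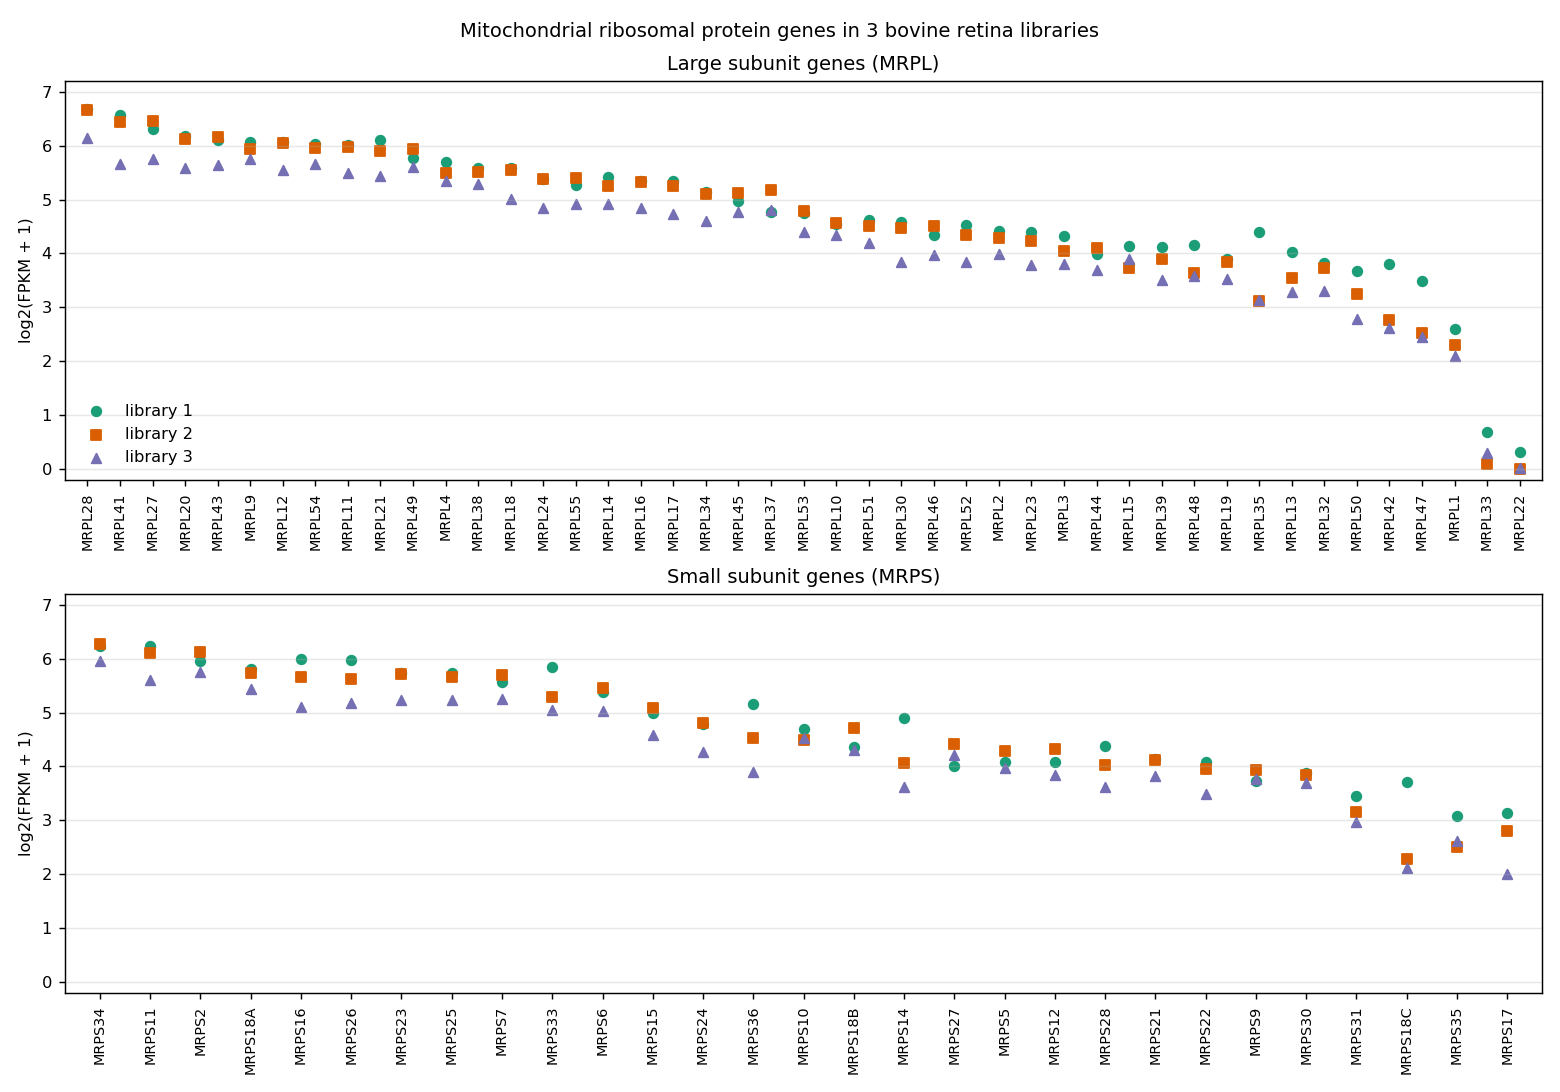
Level of every mitochondrial ribosomal protein gene in each library, as log2(FPKM + 1), with the large subunit above and the small subunit below and genes ordered by mean FPKM. Circles, squares and triangles are libraries 1, 2 and 3. Triangles are lowest for most genes, and the circle of library 1 stands apart for genes such as MRPL35, MRPL42, MRPL47 and MRPS18C.

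Proteins that share a place in the ribosome did not share an mRNA level. In the stalk that recruits translation factors, MRPL12, which forms the flexible arm and in human cells also binds the mitochondrial RNA polymerase, had 59.3 FPKM ± 11.4 and MRPL11 had 56.6 FPKM ± 10.8. MRPL10, which anchors MRPL12, had 21.4 FPKM ± 1.75, below both by more than their SDs (n = 3 for each). In the ribosome several copies of MRPL12 sit on each MRPL10. Among proteins near the peptidyl transferase centre MRPL27 had 72.8 FPKM ± 17.5, MRPL4 44.7 FPKM ± 5.63 and MRPL16 35.5 FPKM ± 6.91. MRPL2 and MRPL3, which bacteria use to shape the same site, were lower at 17.9 FPKM ± 2.84 and 15.8 FPKM ± 2.96 (SD, n = 3 for each).

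Around the exit tunnel, 3 proteins had about 30 FPKM or more. MRPL24 had 36.2 FPKM ± 7.49, MRPL17 34.3 FPKM ± 7.52 and MRPL45, which ties the ribosome to the inner membrane, 30.1 FPKM ± 3.85. MRPL23 had 16.8 FPKM ± 3.69, MRPL44, whose fold resembles an RNA-cutting enzyme, 14.3 FPKM ± 2.17 and MRPL39 13.6 FPKM ± 3.02 (SD, n = 3 for each). MRPL47 and MRPL22 of the same region were the low genes named above. Of the central protuberance, MRPL38 and MRPL18 had 43.3 FPKM ± 4.54 and 41.5 FPKM ± 8.80, and MRPL46 and MRPL48 had 18.5 FPKM ± 3.50 and 13.1 FPKM ± 3.24 (SD, n = 3). MRPL40 of that region was not analysed here.

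The small subunit regions were mixed too, the head least. The upper quartile of gene means was 1.29 times the lower in the head, 1.81 in the body and 2.15 in the platform. It was 3.01 times in the small subunit as a whole. In the head, MRPS7 had 44.7 FPKM ± 7.12, MRPS24 23.9 FPKM ± 4.90, MRPS10 22.8 FPKM ± 1.93, MRPS14 18.6 FPKM ± 9.13 and MRPS9 13.0 FPKM ± 1.01 (SD, n = 3 for each). In the body, MRPS16 stood above MRPS5 at 16.4 FPKM ± 1.97 and MRPS12 at 16.1 FPKM ± 2.87. MRPS12 is the counterpart of the bacterial protein that sets the accuracy of codon reading. In the platform, levels stepped down through MRPS6 at 38.5 FPKM ± 6.08, MRPS15 at 28.9 FPKM ± 5.19, MRPS18B at 21.2 FPKM ± 3.60 and MRPS21 at 15.3 FPKM ± 1.95 to MRPS18C. MRPS18A, MRPS18B and MRPS18C are relatives of the same bacterial protein, and their 3 means did not overlap within their SDs.

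**Figure D3:**
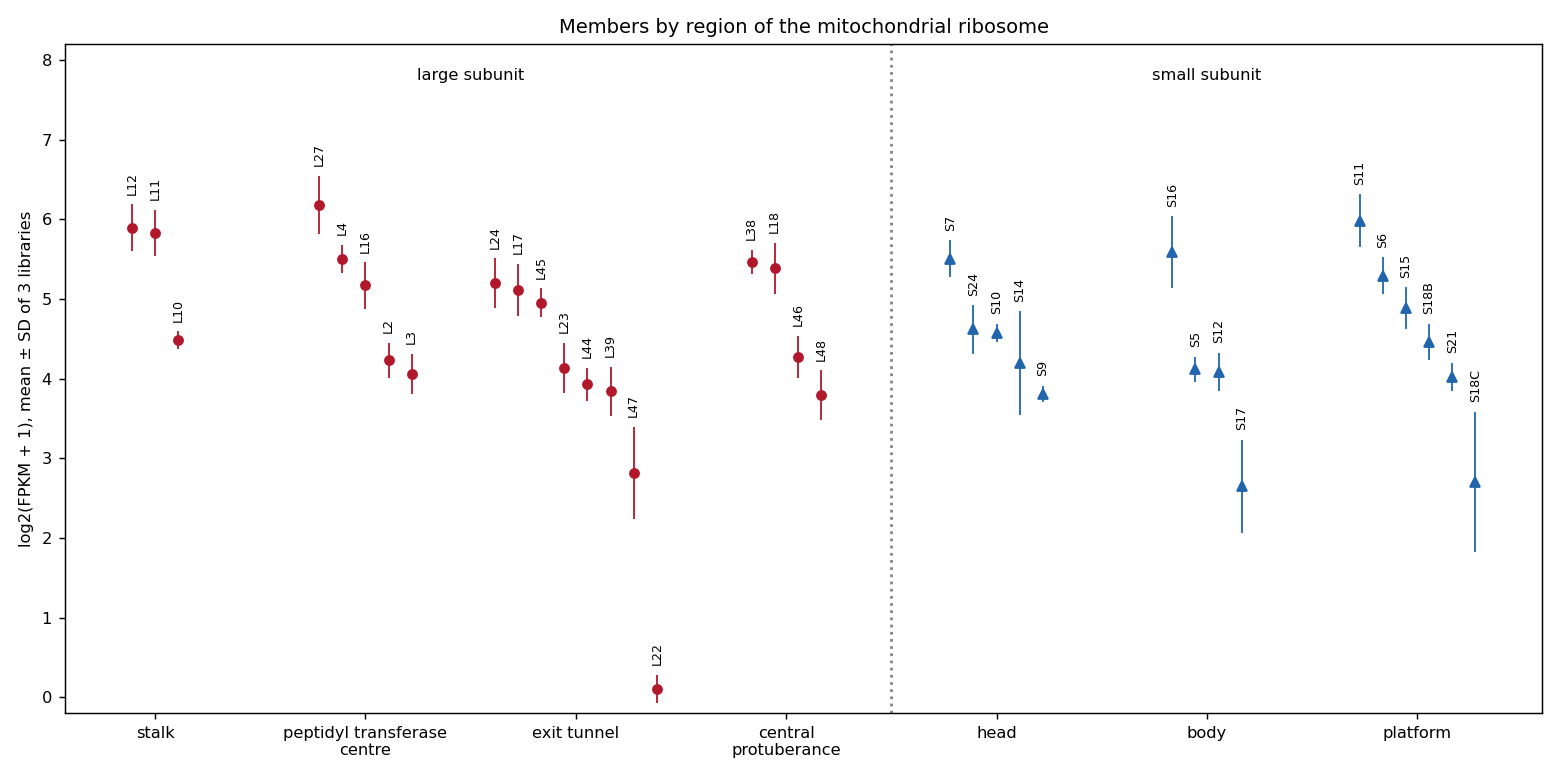
Members grouped by region of the mitochondrial ribosome, with the prefix MRP left off the labels. Each symbol is the mean of log2(FPKM + 1) over 3 libraries and its bar the SD; large subunit regions (circles) are on the left and small subunit regions (triangles) on the right. Every region holds genes on both sides of the family median of 23.2 FPKM, and in the stalk MRPL10 alone lies below it.

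Proteins with and without a bacterial counterpart were compared within each subunit. In the large subunit the 29 conserved genes had medians of 34.1, 33.4 and 23.4 FPKM in libraries 1, 2 and 3, and the 16 mitochondria-specific genes 24.7, 24.3 and 18.7 FPKM. The conserved minus specific difference was 0.40 ± 0.081 on the log2(FPKM + 1) scale (SD, n = 3). Here genes went by their symbols, so MRPS18A was among the conserved small subunit genes, while MRPS30 and MRPS36 were in neither list. In the small subunit the 18 conserved genes had medians of 25.8, 23.4 and 18.5 FPKM, and the 9 specific genes 52.2, 38.2 and 32.2 FPKM. There the difference was -0.82 ± 0.16 (SD, n = 3). The sign was the same in all 3 libraries within each subunit and opposite between the subunits. The specific small subunit set is small and falls apart into 5 genes from 42.4 to 70.9 FPKM and 4 genes from 5.76 to 17.7 FPKM.

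A set of 13 members known for mutations that cause mitochondrial disease in humans was chosen with earlier results of these data known. It may leave others out, so its level describes these 13 genes alone. All 13 had means of at least 10 FPKM, against 86.5% of the family and 38.4% of all genes, from 13.5 FPKM ± 2.94 for MRPS22 to 70.9 FPKM ± 8.36 for MRPS34 (SD, n = 3). Their median was 46.2, 49.5 and 33.3 FPKM in libraries 1, 2 and 3, and in each library it was above the median of the whole family. Other members of the set with high values were MRPL12, MRPS2 and MRPS16, and MRPL44 and MRPL3 were among the lower ones.

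Beyond the symbols that begin with MRPL or MRPS, 7 further ribosomal proteins of the organelle were measured. GADD45GIP1, AURKAIP1 and ICT1 had 52.2 FPKM ± 9.58, 49.7 FPKM ± 8.49 and 48.3 FPKM ± 10.2 (SD, n = 3 for each). ICT1 is a peptidyl-tRNA hydrolase built into the large subunit. MRP63 and CHCHD1 had 36.2 FPKM ± 13.6 and 23.8 FPKM ± 9.0. DAP3, a GTP-binding protein of the small subunit head, and PTCD3, which lies where the mRNA enters, were lowest at 13.3 FPKM ± 1.01 and 12.7 FPKM ± 0.335 (SD, n = 3 for each). All 7 lay between 10 and 100 FPKM, as did 64 of the 74 genes. In the whole table the level of 10 FPKM was reached by 38.4% and that of 100 FPKM by 3.81%.

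Genes that serve this ribosome were mostly below it, as were most genes of the table. About 79% of all genes lay below the family median. The 13 measured translation factors had medians of 8.30, 7.55 and 6.79 FPKM in libraries 1, 2 and 3, so that the ribosomal proteins stood higher by 1.48 ± 0.10 on the log2(FPKM + 1) scale (SD, n = 3). TUFM, the elongation factor that brings tRNA to the ribosome, was the highest with 77.1, 97.3 and 75.01 FPKM, close to the highest ribosomal proteins. OXA1L, the insertase that receives the new chains, had 41.8 FPKM ± 7.50 and TSFM, which recharges TUFM, 32.3 FPKM ± 6.18. Of the 13 factors 3 were above the family median, and the lowest was TACO1, known in humans as an activator of COX1 translation, at 3.05 FPKM ± 0.749 (SD, n = 3).

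The 23 measured assembly factors had medians of 9.85, 11.5 and 9.89 FPKM in the 3 libraries. DHX30, an RNA helicase, had 59.0 FPKM ± 4.31, the GTPase MTG1 55.4 FPKM ± 13.9 and NGRN 41.8 FPKM ± 5.49, while METTL15, a methyltransferase of the small subunit RNA, had 2.20 FPKM ± 0.313 (SD, n = 3 for each). The 20 measured mitochondrial aminoacyl-tRNA synthetase genes had medians of 14.2, 16.7 and 13.5 FPKM. KARS, which also serves the cytosol, had 41.9 FPKM ± 6.45, CARS2 40.0 FPKM ± 8.75 and TARS2 39.4 FPKM ± 5.85 (SD, n = 3 for each), and GATC was listed at 0 in each library. The family median was above 15 of the 23 assembly factors and 17 of the 20 synthetase genes, against about 79% of all genes.

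The cytosolic ribosome and the respiratory chain were expressed well above the mitochondrial ribosome. The mitochondrial family had the medians of 26.0, 24.0 and 19.1 FPKM given above, against 157, 130 and 83.5 FPKM for 76 cytosolic ribosomal protein genes in libraries 1, 2 and 3. The mitochondrial minus cytosolic difference was -2.34 ± 0.24 on the log2(FPKM + 1) scale (SD, n = 3), or a level 5.06-fold lower. Against 75 nuclear-encoded genes of the respiratory chain and ATP synthase, with medians of 124, 107 and 80.2 FPKM, the difference was -2.11 ± 0.097 (SD, n = 3). With means over genes in place of medians these differences were -1.57 and -1.72, so the direction held and the size was smaller. All 3 libraries gave both differences the same sign, and the SDs were small against them.

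Levels were more even within the mitochondrial ribosome than within the cytosolic one. The upper quartile of gene means was 3.33 times the lower quartile in the mitochondrial family, against 6.68 times among cytosolic ribosomal proteins and 3.09 times among respiratory chain and ATP synthase genes. Over all genes that averaged 1 FPKM or more the ratio was 5.96. Cytosolic ribosomal proteins are rich in processed pseudogenes, and their low values are uncertain for the reason given for MRPL22. Whether the wider spread would remain with other counting was not tested.

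Members moved together between libraries. Among the 72 that averaged 1 FPKM or more, 65 were lowest in library 3, against 43.3% of all 9599 genes at that level, 4 were lowest in library 2, against 32.1%, and 51 were highest in library 1, against 45.3%. None was highest in library 3, against 25.7% of all genes, and 21 were highest in library 2, against 29%. The pattern was not particular to this family. Of cytosolic ribosomal protein genes at that level 66 of 73 were lowest in library 3, and of respiratory chain and ATP synthase genes 67 of 73. None of either set was highest there. The order library 1 above 2 above 3 was found in 47 of the 72, against 27.1% of all genes. After scaling to equal sums of FPKM, which raises library 3 by a factor of 1.08, 57 of the 72 were still lowest there, against 24.7% of all genes, and with scaling by the median ratio 63 were, against 34.6%.

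Gene length moved with this pattern. The members are short, with a median of 1008.5 bases against 1901 bases over all genes, and in library 3 most short genes were low. Genes of 600 to below 800 bases that averaged 1 FPKM or more deviated by a median of -0.32 (log2) in library 3 from their mean over libraries, and those of 2500 bases or more by 0.059. The 18 members in the shorter class deviated by -0.39. Longer members were low too, with -0.17 for the 8 members of 1500 to below 2500 bases, against -0.065 for all genes of that length, and -0.25 for the 2 members of 2500 bases or more. Among genes of 428 to 1500 bases that averaged 1 FPKM or more, 70.8% were lowest in library 3 and 59.4% highest in library 1. The lower limit is the length of the shortest member. After removal of the length trend of all genes, 38 of the 72 members were lowest in library 3, against 30.3% of all genes. Highest in library 1 were 30, against 36.3%. Of cytosolic ribosomal proteins 30 of 73 and of the respiratory chain and ATP synthase 28 of 73 were then lowest in library 3. The median deviation left there was -0.071 and -0.067 in these sets, against -0.064 for members.

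The residue after the trend was removed lay more on the large subunit. There 28 of 43 genes were lowest in library 3, against 10 of 29 in the small subunit and 30.3% of all genes. The median deviation left in library 3 was -0.076 for large and -0.034 for small subunit genes on the log2 scale. The difference between the subunits was not tested. Across the 72 members gene length and the deviation in library 3 had a Spearman rho of 0.78, and length and mean level one of -0.092. Among all genes that averaged 1 FPKM or more these were 0.57 and -0.20. Members share the libraries and their depth, and no p is given.

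**Figure D4:**
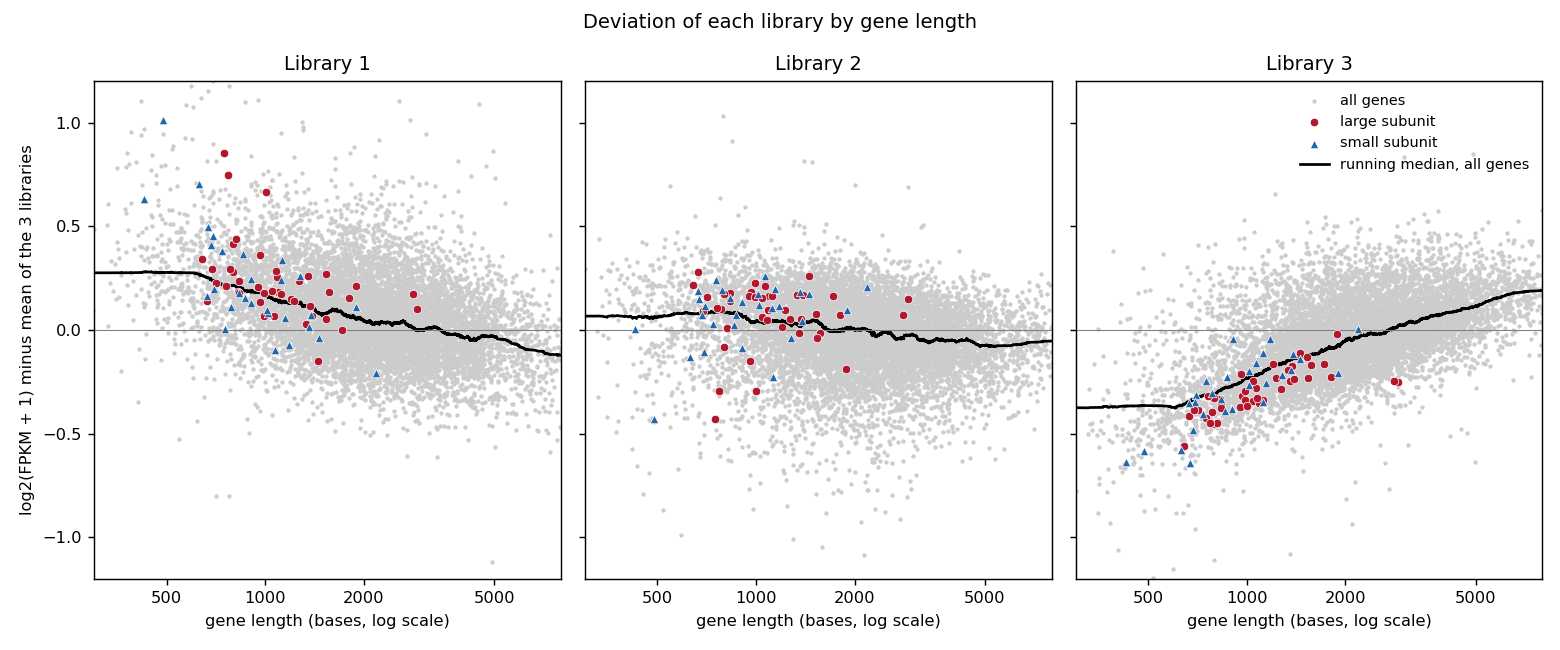
Deviation of each library from the mean of the 3 libraries, on the log2(FPKM + 1) scale, against gene length in bases on a log axis, for genes that averaged 1 FPKM or more. Grey points are all genes, the line is their running median, red circles are large and blue triangles small subunit genes. In library 3, where the line is low for short genes, most members lie at or below it, and a few lie far above it in library 1; some grey points fall outside the plotted range.

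The 74 members had a median SD of log2(FPKM + 1) between libraries of 0.28, against 0.19 for all genes that averaged 1 FPKM or more. It was higher among cytosolic ribosomal proteins, at 0.37, and among respiratory chain and ATP synthase genes, at 0.35. The steadiest members were MRPS9 with 12.3, 14.2 and 12.6 FPKM, MRPS30 with 13.7, 13.4 and 11.9 FPKM and MRPS10 with 25.0, 21.4 and 22.05 FPKM in libraries 1, 2 and 3. A difference of at least 1.5-fold between the highest and the lowest library was seen in 28 of the 72 genes, against 27.8% of all genes, and one of at least 2-fold in 8, against 6.06%. The count of 28 rested on libraries 1 and 3, and was 5 without library 1, 7 without library 3 and 26 without library 2. Among genes of 428 to 1500 bases 43% differed by at least 1.5-fold, against 38.9% of members, and with the length trend removed 6 members did. As deposited, 58 of 73 cytosolic ribosomal protein genes and 49 of 73 respiratory chain and ATP synthase genes did.

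In 4 genes library 1 stood apart from both other libraries. MRPS18C had 12.2, 3.84 and 3.35 FPKM in libraries 1, 2 and 3, from 217, 73 and 80 reads, and the ratio of library 1 over library 2 was 3.16 (95% exact interval 2.42 to 4.18, counting error only). MRPL35, a protein of bacterial descent, had 20.2, 7.69 and 7.74 FPKM, a ratio of 2.63 (2.24 to 3.08). MRPL42 had 13.0, 5.79 and 5.10 FPKM, a ratio of 2.24 (1.87 to 2.70). MRPL47 had 10.2, 4.75 and 4.47 FPKM, a ratio of 2.14 (1.79 to 2.57). Library 1 was at least 2-fold above library 2 in these 4 of the 72 members, or 5.56%. That step was found in 3.11% of all genes that averaged 1 FPKM or more. Among those of 428 to 1500 bases it was found in 4.76%, so the count of members is near the share of short genes.

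Libraries 2 and 3 gave nearly equal values for these 4 genes. With the length trend removed, MRPS18C still stood 0.74 above its mean over libraries in library 1 on the log2 scale, MRPL35 0.63, MRPL42 0.53 and MRPL47 0.50. The pigment epithelium genes RPE65, with 6.39, 1.92 and 1.61 FPKM, and BEST1, with 2.11, 0.733 and 0.718 FPKM, were high in the same library. TYRP1 and MITF of the same marker list were not. The part of those cells in the values of the 4 genes was not tested.

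Stepwise differences were seen in MRPS14, MRPS36 and MRPS17. MRPS14 had 28.8, 15.7 and 11.3 FPKM in libraries 1, 2 and 3, MRPS36 34.8, 22.2 and 13.8 FPKM and MRPS17 7.83, 5.94 and 3.01 FPKM. The ratio of library 1 over library 3 was 2.56 for MRPS14 (95% exact interval 2.25 to 2.92), 2.51 for MRPS36 (2.18 to 2.91) and 2.60 for MRPS17 (2.03 to 3.35). These intervals do not reach 1, so sampling of reads was smaller than the differences. All 3 are shorter than 700 bases, in the range where the median gene was low in library 3. With the length trend removed, MRPS14 deviated by 0.44, -0.21 and -0.21 (log2) in libraries 1, 2 and 3, so library 1 alone stood apart. MRPS36, with 0.35, -0.057 and -0.27, and MRPS17, with 0.24, 0.069 and -0.30, still stepped down. MRPL50, with 11.8, 8.47 and 5.88 FPKM, was the remaining gene with a 2-fold range. Library 1 was at least 2-fold above library 3 in 8 of the 72 members, or 11.1%. The share was 3.03% of all genes and 6.67% of those of 428 to 1500 bases.

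Some values may hold reads of a neighbour. In the ARS-UCD2.0 annotation 10 of the 74 members overlap another gene of the table, or 13.5%, against 13.9% of all matched genes. The partners of MRPL16, MRPL51 and MRPL55 were the most abundant, with STX3 at 242 FPKM, VAMP1 at 139 FPKM and GUK1 at 190 FPKM, against 35.5 FPKM ± 6.91, 20.9 FPKM ± 3.20 and 36.0 FPKM ± 6.24 for the members (SD, n = 3). MRPL14, MRPL30, MRPL47, MRPL49, MRPS6, MRPS7 and MRPS18C overlap less abundant genes or genes near their own level. No label says whether strand was used in counting, so reads of overlapping partners cannot be told apart. Without the 10 genes the median of the family was 22.1 FPKM and the large minus small difference 0.065.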

How the data were processed

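Poly(A) RNA from pooled total RNA of bovine retinas was copied with random primers and fragmented to about 200 bp, per the labels' protocols. CASAVA 1.8.1, GSNAP and HTSeq appear in the submitters' processing notes. Build, annotation, strandedness and the treatment of multiply matching reads are not given in the sources used. The authors deposited FPKM per gene and library with a gene length, per the file headers, and replicate numbers tied columns to libraries.

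Reads were recovered from FPKM times gene length, which was whole within 0.1 reads in 100% of values of up to 2000 reads in each library, and were used for depth, the floor of 3 reads and 95% exact binomial (Clopper-Pearson) intervals of ratios, which cover counting error only. Denominators were 36656987, 39011741 and 49102476 reads. Recovery and trend removal were tested on simulated data. Levels were compared on log2(FPKM + 1), which understates the change of low genes, with Python 3.11.15 and pandas 2.3.3. The length trend was the running median over 501 genes among genes averaging 1 FPKM or more. No test was run, since 1 group leaves no contrast and genes are not replicates. All 74 symbols matched ARS-UCD2.0 gene names, used for names and overlaps alone.

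Members and lists were chosen with earlier results of these data known. Named genes were the 5 highest and 5 lowest of each subunit, the 5 with the largest and 3 with the smallest SD of log2(FPKM + 1), members of the structural lists, members that overlap another gene, a fixed set (MRPS18A, MRPS18B, MRPS18C, MRPS30, MRPS36, MRPL12, MRPS12), and the 3 highest and the lowest gene of each companion list; a few others, such as MRPL50, MRPS33, RPL7 and ATP5L, were chosen after their values were seen. Alternatives were leaving out each library, a pseudocount of 0.1, means over genes, minimum FPKM and length, 2 scalings, removal of the length trend, subunit by structure, and leaving out overlapping genes. A minimum of 10 FPKM and the structural assignment without added symbols were chosen after seeing the data.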

Additional observations from a re-analysis of the deposited data

How the results depend on the processing

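Leaving out each library in turn gave a family median of 21.9 to 24.7 FPKM, a large minus small difference of 0.043 to 0.19, a large to small ratio of 1.06 to 1.08, differences of -2.47 to -2.23 from cytosolic ribosomal proteins and -2.16 to -2.06 from the respiratory chain and ATP synthase, 62 to 65 genes at 10 FPKM or more, and 5 to 26 genes with a 1.5-fold range. With means of log2(FPKM + 1) over genes the 3 differences were -0.047, -1.57 and -1.72. Among members averaging 1 FPKM or more the large minus small difference was 0.30 and the ratio 1.12, and by structure with other symbols added 0.39 and 1.12. Either scaling left 17 genes with a 1.5-fold range. Removal of the length trend left 6 such genes and 30 highest in library 1. At the stricter limits 8 genes had a 2-fold range and 0 reached 100 FPKM. With a minimum of 10 FPKM, chosen after seeing the data, the difference from the respiratory chain was -1.76. Apart from the effect of fewer genes or libraries, the cause of these changes was not tested. Of 60 alternatives 44 moved a value by less than the SD between libraries, or a count by less than 1.5-fold. Depth limited MRPL22 and MRPL33, with 14 and 16 reads in all. No paired analysis was possible because the 3 libraries form 1 group.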

Other observations

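Genes that transcribe and process mitochondrial RNA were measured for 8 of 13 symbols, and 2 of the 8 lay above the median of the mitochondrial ribosomal proteins. Below that median lay about 79% of all genes. SLIRP, which stabilises mitochondrial mRNAs, had 75.2, 55.4 and 36.7 FPKM in libraries 1, 2 and 3, and HSD17B10, a subunit of the mitochondrial RNase P, had 63.7, 54.6 and 44.5 FPKM. Both followed the order of most ribosomal proteins, with library 1 highest and library 3 lowest. They are short, at 380 and 951 bases. ELAC2, which trims the other end of mitochondrial tRNAs, had 20.7, 22.7 and 18.3 FPKM. The polymerase POLRMT had 7.76 FPKM ± 1.27, and the transcription factors TFAM and TFB2M averaged 6.31 FPKM ± 1.81 and 9.55 FPKM ± 1.68 (each SD over n = 3). The lowest was KIAA0391, the nuclease of that RNase P, with 1.38 FPKM ± 0.109 (SD, n = 3). POLRMT and FASTKD5, of 3857 and 2900 bases, were highest in library 3. These 2 of 8 genes are close to the share of all genes, 25.7%. None of the 72 ribosomal proteins was highest there, and the part of gene length was not tested.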
